A study of Mus musculus with 53 samples.

Results

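The microglia-depleting compound PLX5622 was compared with control chow in ethanol-dependent mice, in tissue from the amygdala's central nucleus (CeA). The comparison rests on 9 of the 53 libraries of the series, 4 from mice on PLX5622 chow and 5 from mice on control chow, chosen by the labels for region, diet and ethanol history. All came from C57BL6/J mice, 119 days after birth. By the chow label PLX5622 was fed at 1200 ppm, written as 1200 mg/kg in the protocol, for 28 days before ethanol began; the sources used here do not say whether feeding went on afterwards. Mice of both diets then had chronic intermittent ethanol exposure together with voluntary drinking of 15% ethanol over 4 weeks, and were killed 24 hours after the last ethanol. The labels name no transgene, and diet is the one labelled difference between these 9 libraries. Punches of frozen 300 µm slices gave the tissue, so each library is RNA of whole tissue. The labels number the samples but do not say that each number is a separate animal, so p-values measure the spread between these samples. Beside them stand 10 CeA libraries of mice labelled non-dependent (6 control, 4 PLX5622), whose own ethanol access is not stated separately, and 18 libraries from the medial prefrontal cortex (mPFC) of dependent mice (9 and 9).

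Microglia are the resident macrophages of the brain and need continuous signalling through CSF1R, a receptor kinase activated by CSF1 and IL-34, to stay alive. PLX5622 enters the brain, inhibits this kinase and so removes most microglia within days, and it also affects other macrophages that depend on the receptor. The central amygdala is a largely GABAergic nucleus that organises fear and stress responses and is engaged in withdrawal and excessive drinking in ethanol dependence, and immune signalling in it has been studied as part of that state.

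Counts in genes ran from 1062443 to 1968971 per library, and 16674 to 18287 genes had a count. Control libraries 1, 9 and 11 and PLX5622 libraries 6, 7 and 8 held synthetic spike-in RNA, 0.563% to 1.31% of reads, and its share was higher in the PLX5622 holders (0.875% to 1.31%) than in the control holders (0.563% to 0.656%). Control libraries 2 and 3 and PLX5622 library 29 held 176 spike-in counts or fewer. In every series of values below, control libraries come in the order 1, 2, 3, 9 and 11 and PLX5622 libraries in the order 6, 7, 8 and 29. Of 25 genes listed for central amygdala neurons and neuropeptides 24 had enough counts to test, among them Prkcd, a kinase that marks one class of its GABA neurons, at 11.2 to 19.3 CPM over the 9 libraries, and Sst, encoding somatostatin, at 473.9 to 637.8. Neurod6, a transcription factor of excitatory neurons of the cortex and neighbouring amygdala, was also present, at 41.5 to 86.9 CPM. CPM scales a gene's counts to a common library size, after the trimmed-mean (TMM) scaling of edgeR.

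PLX5622 lowered a compact set of genes, most of them known from microglia, and raised 1. Of 11721 genes tested with edgeR's quasi-likelihood test, 48 (0.41%) were called at an adjusted p under 0.05; 47 (0.401%) were lower with PLX5622 and 1 (0.00853%) was higher. The libraries of the diets did not overlap for 46 of the 47 genes. These genes were called on the same libraries, so this count describes them and is no further support for the calls. Over all tested genes 1.41% were lower without overlap and 0.776% were higher without overlap. Summed over the 47 genes, which were chosen by this contrast, the control libraries held 924, 1243, 989, 986 and 1125 CPM and the PLX5622 libraries 207, 179, 192 and 200. What remained was 18.5% of the control sum. In whole tissue, fewer microglia and less RNA per microglial cell cannot be told apart. The 4 PLX5622 libraries were close to each other and far below the control range. Within the 6 libraries that hold spike-in RNA, 8 of the 47 genes kept their direction but missed the threshold (Rnase4, Nckap1l, Runx1, Cflar, Pde3b, Tgfbr2, Lpcat2 and Abca9, adjusted p = 0.0649 to 0.542 with edgeR).

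**Figure D1:**
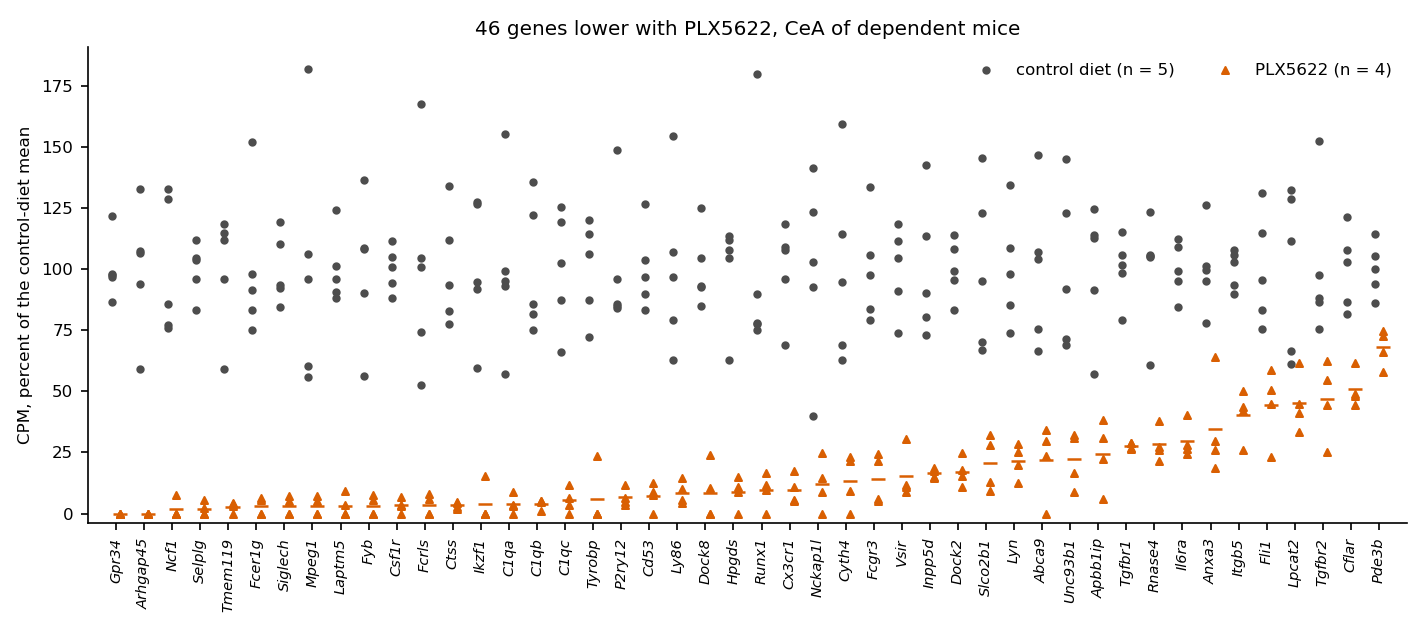
Level of 46 of the 47 lower genes in every library, as percent of the gene's mean CPM over the 5 control libraries; circles are control libraries, triangles PLX5622 libraries, and dashes the PLX5622 mean. Genes are ordered by what remained, from 0% for Gpr34 and Arhgap45 to 67.9% for Pde3b, and Lpcat2 is the gene whose libraries overlap.

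The 47 genes did not fall to a common level. In 25 of them less than 10% of the control mean remained, in 11 between 10% and 25%, and in 11 more than 25%. The deepest group held genes used to recognise homeostatic microglia, such as P2ry12 and Tmem119, and more general leukocyte genes, such as Ikzf1 and Cd53. Tgfbr1, Tgfbr2, Itgb5 and Pde3b were in the shallowest group. Whether the depth of the fall follows the cell types that express a gene was not tested. In the list of myeloid genes assembled from these roles, 178 genes in all, 94 were tested, 37 fell, 57 were not called and none was called higher. Over all tested genes 0.401% were called lower. The lists were chosen with earlier results of these data known, so counts in this list and those below are a description and no support for the calls. The other 84 of the 178 genes had too few counts to test: 6 had none in the 9 libraries, and 71 of the remaining 78 had a lower CPM with PLX5622, 1211 control against 230 PLX5622 counts in total. With no filter on low counts 14 more of them fell, among them P2ry13, a second ADP receptor, and Adgre1, the macrophage antigen F4/80. Counting with regard to strand is not stated, and 8 of the called genes, among them Csf1r, Cx3cr1, P2ry12, Vsir, Ncf1, Gpr34 and Dock2, overlap another gene with 50 or more counts, so their values are less certain.

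In the list of the drug target, its ligands and myeloid transcription factors, Csf1r, Ikzf1 and Runx1 fell. Csf1r (chromosome 18), which encodes the inhibited receptor, was at 47.8, 54.9, 51.4, 56.97 and 60.6 CPM in control and 3.73, 1.98, 1.73 and 0 in PLX5622 libraries. The highest PLX5622 library, at 3.73, was far below the lowest control library, at 47.8. Csf1r had a log2 fold change of -4.76 ± 0.26 (SE) at an adjusted p of 2.43e-16. Ikzf1 (chromosome 11, 11685003 to 11772926, GRCm38 with GENCODE M21 annotation, as for all positions below), a zinc-finger factor of blood and immune cells, was at 11.2, 15.5, 7.23, 11.5 and 15.4 CPM in control and 1.87, 0, 0 and 0 in PLX5622 libraries. Its 3 PLX5622 counts all came from library 6, and the group ratio was 21.6-fold below control (95% counting interval 7.16 to 106.4). Runx1 (chromosome 16, 92601466 to 92826149), a factor needed for blood cell development, was at 5.58, 13.4, 5.79, 5.76 and 6.68 CPM in control and 1.24, 0, 0.865 and 0.715 in PLX5622 libraries. Its groups did not overlap, with control library 2 the highest of the 9. On the log2 scale Runx1 changed by -3.12 ± 0.58 (SE, adjusted p = 0.00114). Of the 12 genes in this list 8 were tested, 3 fell, and the median log2 fold change was -0.90, against 0.00084 over all genes tested. Sall1, which maintains microglial identity, was at 11.96, 9.85, 7.23, 10.2 and 7.71 CPM in control and 3.73, 3.95, 6.06 and 3.58 in PLX5622 libraries. The groups did not overlap, yet at -1.11 ± 0.34 it did not pass the test (adjusted p = 0.311). The ligands of the receptor did not differ detectably. Il34 was at 38.3, 42.9, 40.5, 42.9 and 46.3 CPM in control and 49.8, 43.5, 52.8 and 47.2 in PLX5622 libraries. Csf1 was at 8.77, 11.3, 9.40, 8.96 and 9.77 CPM in control and 7.47, 9.88, 12.98 and 14.3 in PLX5622 libraries. The groups overlapped for both, with log2 fold changes of 0.19 ± 0.12 (adjusted p = 0.950) and 0.19 ± 0.25 (adjusted p = 0.973). Spi1, which encodes PU.1, was not tested, with 21 counts over the control and 2 over the PLX5622 libraries.

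Receptors and surface proteins with which microglia sense their surroundings included many called genes. Of 19 members 14 were tested and 9 fell, with a median log2 fold change of -3.42. P2ry12 (chromosome 3, 59216272 to 59262871), the ADP receptor that guides microglial processes, was at 24.7, 43.6, 28.2, 24.96 and 25.2 CPM in control and 1.87, 0.988, 3.46 and 1.43 in PLX5622 libraries. Control library 2 stood above the other control libraries, and all PLX5622 libraries lay below all of them. The fitted change of P2ry12 was -3.86 ± 0.33 in log2 (SE, adjusted p = 9.36e-11). Cx3cr1 (chromosome 9, 119901616 to 120069879), the receptor for neuronal fractalkine, was at 37.5, 42.2, 46.3, 26.9 and 42.7 CPM in control and 6.85, 1.98, 4.33 and 2.15 in PLX5622 libraries. The groups were far apart, with 9.78% of the control mean remaining. The log2 fold change of Cx3cr1 was -3.25 ± 0.26 (SE, adjusted p = 2.55e-11). Tmem119 (chromosome 5, 113793729 to 113800516), a marker that separates microglia from blood macrophages, was at 22.3, 26.03, 13.7, 27.5 and 26.7 CPM in control and 0, 0.988, 0.865 and 0.715 in PLX5622 libraries. It had 3 counts over the PLX5622 libraries and lay 41.1-fold below control (95% counting interval 13.8 to 201.00). Gpr34 (chromosome X, 13632089 to 13640858), a lysophospholipid receptor, was at 6.38, 6.33, 7.96, 6.40 and 5.65 CPM in control and 0, 0, 0 and 0 in PLX5622 libraries. It was not found in any PLX5622 library, at least 11.2-fold lower than in control where 3 counts over the group set the floor. Siglech, a sialic-acid-binding lectin, Selplg, a selectin ligand, and Fcrls, an Fc-receptor-like protein of mouse microglia, had 2, 3 and 2 counts with PLX5622 against 91, 190 and 82. Selplg lay 43.6-fold below control (95% counting interval 14.7 to 213.2). Cd53, a tetraspanin of leukocytes, had 3 counts against 60, 13.8-fold below control (95% counting interval 4.49 to 68.6). Slco2b1, an organic anion transporter, was at 10.4, 22.5, 10.8, 14.7 and 19.02 CPM in control and 4.98, 1.98, 4.33 and 1.43 in PLX5622 libraries. Its groups did not overlap. Slco2b1 had a log2 fold change of -2.24 ± 0.34 (SE) at an adjusted p of 4.60e-05. Aif1, which encodes the marker protein IBA1, had too few counts to test. It was at 5.58, 4.22, 3.62, 1.28 and 4.11 CPM in control and 0.622, 0.988, 0.865 and 0.715 in PLX5622 libraries, so every PLX5622 library lay below every control library. At these levels a library holds very few counts of the gene, so that separation is not firm.

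Of the members that were not called, Ptprc, which encodes CD45, was at 9.57, 11.3, 8.68, 11.5 and 9.25 CPM in control and 8.09, 12.8, 7.79 and 12.2 in PLX5622 libraries. The groups covered the same range, and the log2 fold change was 0.0035 ± 0.26 (SE, adjusted p = 1.00). Entpd1, an ectonucleotidase, was at 18.3, 21.8, 17.4, 17.9 and 21.1 CPM in control and 10.6, 9.88, 13.8 and 7.15 in PLX5622 libraries, and Olfml3, a secreted protein of microglia, at 4.78, 7.04, 5.79, 7.04 and 12.8 CPM in control and 1.87, 1.98, 3.46 and 3.58 in PLX5622 libraries. Every PLX5622 library lay below every control library for both, but neither passed the test, at -0.91 ± 0.25 (adjusted p = 0.146) and -1.51 ± 0.43 (adjusted p = 0.188). With no filter on low counts both were called (adjusted p = 0.0270 and 0.0407), and Entpd1 also without control non-dependent library 19 (adjusted p = 0.0331). These 3 genes were named after their values were seen.

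All 3 chains of the complement initiator C1q fell. They are encoded side by side on chromosome 4 by C1qa (136895917 to 136898803), C1qc (136889804 to 136893065) and C1qb (136880129 to 136886187), and the protein tags synapses and debris for uptake. C1qb was at 61.4, 102.02, 56.4, 64.6 and 91.999 CPM in control and 3.73, 3.95, 3.46 and 0.715 in PLX5622 libraries. C1qc was at 47.05, 64.03, 35.4, 55.05 and 67.3 CPM in control and 6.22, 1.98, 3.46 and 0 in PLX5622 libraries. C1qa was at 27.9, 43.6, 26.8, 16.002 and 26.2 CPM in control and 2.49, 0.988, 0.865 and 0 in PLX5622 libraries. Library 29 was the lowest PLX5622 library for all 3 chains. The log2 fold changes were -4.67 ± 0.32 (adjusted p = 3.19e-10), -4.10 ± 0.37 (adjusted p = 1.88e-07) and -4.49 ± 0.42 (adjusted p = 5.53e-10). Itgb5 (chromosome 16, 33829665 to 33949338), an integrin subunit used in the uptake of dying cells and expressed beyond microglia, was at 37.5, 35.9, 41.2, 42.2 and 43.2 CPM in control and 17.4, 16.8, 10.4 and 20.03 in PLX5622 libraries. It kept 40.4% of its control mean. On the log2 scale Itgb5 changed by -1.29 ± 0.20 (SE, adjusted p = 7.45e-05). The list held 13 complement and integrin genes, 7 of them tested and 4 called lower, with a median of -1.29. Where fewer members passed the filter that median was lower, at -2.70 for a mean CPM of 5 or more, -4.10 in the 9 libraries alone, -2.68 without control library 9 and -2.70 without any one of non-dependent control libraries 15, 16 and 17. The microglial integrin gene Itgam was listed at 0 in all 9 libraries, as were Trem2 and Irf8, so nothing can be read from them.

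Signalling through ITAM adaptors and Fc receptors formed a further block, with 6 of 9 tested genes lower, a median of -2.60, and all 9 below 0. Tyrobp (chromosome 7, 30413760 to 30417585), the adaptor DAP12 that pairs with TREM2 and other receptors, was at 15.2, 14.1, 11.6, 9.60 and 15.9 CPM in control and 3.11, 0, 0 and 0 in PLX5622 libraries. Its 5 PLX5622 counts all lay in library 6, and the other 3 libraries had none. The fitted change of Tyrobp was -3.67 ± 0.53 in log2 (SE, adjusted p = 1.14e-05). Fcer1g, the common Fc receptor gamma chain, had 2 counts against 86, 29.6-fold below control (95% counting interval 7.95 to 248.3). Fcgr3, a low-affinity IgG receptor, was at 9.57, 16.2, 10.1, 12.8 and 11.8 CPM in control and 0.622, 2.96, 2.60 and 0.715 in PLX5622 libraries. Its groups did not overlap. The log2 fold change of Fcgr3 was -2.90 ± 0.41 (SE, adjusted p = 1.02e-05). Inpp5d (chromosome 1, 87620312 to 87720507), the lipid phosphatase SHIP1 that restrains this pathway, was at 15.9, 22.5, 14.5, 17.9 and 28.3 CPM in control and 3.73, 2.96, 3.46 and 2.86 in PLX5622 libraries. The 4 PLX5622 libraries were nearly equal to each other, at 16.4% of control. Inpp5d had a log2 fold change of -2.60 ± 0.31 (SE) at an adjusted p of 4.06e-07. Lyn, the Src-family kinase of the pathway, kept 21.5% and Fyb, a T cell and myeloid adaptor, had 2 counts against 87. Tbxas1, thromboxane synthase, was at 2.39, 9.85, 5.79, 7.68 and 6.17 CPM in control and 2.49, 2.96, 0 and 2.86 in PLX5622 libraries. Its groups overlapped, and at -1.57 ± 0.49 it did not pass the test (adjusted p = 0.357).

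Haematopoietic regulators of Rac and actin, which shape moving processes and phagocytic cups, fell in 6 of 13 tested genes, with a median of -0.88 (-2.20 over 20 genes with no filter, -0.39 over 10 in the 9 libraries alone). Arhgap45 (chromosome 10, 80016653 to 80031472), a GTPase-activating protein of blood cells, was at 3.99, 6.33, 7.23, 8.96 and 7.20 CPM in control and 0, 0, 0 and 0 in PLX5622 libraries. It was not found in any PLX5622 library and was at least 11.9-fold lower against the same floor. Dock2, a Rac activator of leukocytes, was at 7.97, 9.15, 8.68, 7.68 and 6.68 CPM in control and 1.24, 1.98, 0.865 and 1.43 in PLX5622 libraries. Its groups were well apart. On the log2 scale Dock2 changed by -2.48 ± 0.40 (SE, adjusted p = 9.78e-05). Dock8, a Cdc42 activator, had 3 counts against 62, 14.2-fold below control (95% counting interval 4.65 to 70.8). Apbb1ip, the Rap1 partner that activates integrins, and Cyth4, an Arf activator, kept 24.3% and 13.5% of control. Nckap1l, the leukocyte subunit of the WAVE complex, was at 3.99, 14.1, 12.3, 10.2 and 9.25 CPM in control and 2.49, 0, 0.865 and 1.43 in PLX5622 libraries. Control library 1 was the lowest of its group and still above the highest PLX5622 library.

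Lysosomal genes fell to different depths. All 17 tested members were below 0, 4 fell, and the median was -0.47. Ctss (chromosome 3, 95526786 to 95556403), a cathepsin largely confined to microglia in the brain, was at 58.2, 94.3, 65.8, 54.4 and 78.6 CPM in control and 3.11, 1.98, 3.46 and 1.43 in PLX5622 libraries. Only 3.55% of the control mean remained. The fitted change of Ctss was -4.76 ± 0.25 in log2 (SE, adjusted p = 1.94e-16). Laptm5, a lysosomal membrane protein of blood cells, was at 23.9, 33.8, 26.04, 27.5 and 24.7 CPM in control and 2.49, 0.988, 0 and 0 in PLX5622 libraries. In libraries 8 and 29 it was not found. The log2 fold change of Laptm5 was -4.69 ± 0.38 (SE, adjusted p = 1.54e-11). Mpeg1, the pore-forming perforin-2 of macrophages, had 2 counts against 88, 30.3-fold below control (95% counting interval 8.14 to 253.95). Cst3, encoding the abundant protease inhibitor cystatin C that astrocytes and microglia both make, was at 928.1, 887.9, 914.9, 888.4 and 952.9 CPM in control and 698.8, 675.6, 672.4 and 953.5 in PLX5622 libraries. Libraries 6, 7 and 8 lay below all controls, and library 29 lay at the top of the control range. Its log2 fold change was -0.28 ± 0.081 (adjusted p = 0.188); without library 29 it was -0.42 (adjusted p = 0.000506), and among the libraries with spike-in RNA -0.44 (adjusted p = 0.00433). Ctsz and Ctsc, further cathepsins named after their values were seen, were at -0.80 ± 0.20 (adjusted p = 0.0868) and -1.41 ± 0.38 (adjusted p = 0.146), and Ctsz was called without control library 1 (-0.89, adjusted p = 0.0203) or without PLX5622 non-dependent library 23 (-0.80, adjusted p = 0.0496), Ctsc without control library 9 (-1.58, adjusted p = 0.0471).

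Of the lipid mediator genes 2 of 7 tested fell, with a median of -0.92. Hpgds (chromosome 6, 65117293 to 65144908), the haematopoietic prostaglandin D synthase, was at 7.18, 11.96, 13.02, 12.8 and 12.3 CPM in control and 1.24, 0.988, 1.73 and 0 in PLX5622 libraries. Control library 1 was the lowest of its group and still above every PLX5622 library. Hpgds had a log2 fold change of -3.47 ± 0.49 (SE) at an adjusted p of 5.40e-06. Lpcat2 (chromosome 8, 92855339 to 92919279), which makes platelet-activating factor and its precursors, was at 12.8, 23.2, 26.8, 27.5 and 13.9 CPM in control and 9.33, 12.8, 6.92 and 8.58 in PLX5622 libraries. PLX5622 library 7 overlapped control library 1. On the log2 scale Lpcat2 changed by -1.15 ± 0.25 (SE, adjusted p = 0.0120); without control libraries 3 or 9 or PLX5622 libraries 6, 8 or 29 the adjusted p was 0.0607, 0.0799, 0.0671, 0.0886 and 0.0671.

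Cytokine genes gave a narrower result. Of 33 sensors, cytokines and their receptors 10 were tested and 3 fell, all of them receptors, and the median of those 10 was 0.046. With no filter on low counts 31 were tested, 23 were below 0, the median was -1.42 and 5 fell, the additional ones being Tlr7, a sensor of RNA (35 counts against 0), and Il10ra, the IL-10 receptor (31 against 3). The value of -1.42 was that of Cd14, with 5 counts against 1. Tlr1, Tlr6 and Tnf, among those below 0, had 1 count against 0. The median with no filter therefore depends on the fit at very few counts. The median of the 10 was also below 0 within the libraries that hold spike-in RNA (-0.19), without control library 1 (-0.072) and without PLX5622 library 29 (-0.15). Tgfbr1 (chromosome 4, 47353222 to 47414931), the type I receptor for TGF-beta, a factor microglia need to keep their identity, was at 40.7, 54.2, 52.1, 50.6 and 59.1 CPM in control and 13.7, 14.8, 14.7 and 13.6 in PLX5622 libraries. The 4 PLX5622 libraries lay close together, at 27.7% of the control mean. The fitted change of Tgfbr1 was -1.87 ± 0.17 in log2 (SE, adjusted p = 3.19e-10). Tgfbr2 (chromosome 9, 116084293 to 116175360), its type II partner, was at 16.7, 33.8, 21.7, 19.2 and 19.5 CPM in control and 5.60, 9.88, 13.8 and 12.2 in PLX5622 libraries. Its groups did not overlap, but it was no longer called without control library 2 (-0.93, adjusted p = 0.105) or PLX5622 library 6 (-0.87, adjusted p = 0.283). The log2 fold change of Tgfbr2 was -1.12 ± 0.24 (SE, adjusted p = 0.0132). Il6ra, the IL-6 receptor subunit, kept 29.8% of control. Il1b and Tnf, the cytokines most often measured in ethanol studies, had too few counts to test, Il1b 3 against 0 counts and Tnf 1 against 0 counts. Genes of activated microglia gave 0 calls among 9 tested, with a median of -0.20 that was 0.0086 without PLX5622 library 6, -0.098 without control library 2 and -0.084 within the libraries that hold spike-in RNA. Spp1, osteopontin, was at 7.97, 15.5, 7.96, 11.5 and 22.6 CPM in control and 3.11, 7.90, 6.92 and 10.7 in PLX5622 libraries, and Igf1, a growth factor also made by neurons, at 10.4, 7.04, 10.1, 9.60 and 8.74 CPM in control and 12.4, 18.8, 16.4 and 11.4 in PLX5622 libraries. Spp1 overlapped between diets, Igf1 lay above control in every PLX5622 library, and neither passed the test (adjusted p = 0.679 and 0.647).

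Of the 47 genes 10 stood in none of the lists. Ly86, which encodes the TLR4-family partner MD-1, was at 16.7, 26.7, 13.7, 10.9 and 18.5 CPM in control and 2.49, 0.988, 1.73 and 0.715 in PLX5622 libraries, and Vsir, the checkpoint ligand VISTA, at 11.96, 14.8, 18.1, 19.2 and 16.96 CPM in control and 1.87, 4.94, 1.73 and 1.43 in PLX5622 libraries. Both were lower in every PLX5622 library, at -3.41 ± 0.38 (adjusted p = 7.84e-08) and -2.77 ± 0.32 (adjusted p = 1.88e-07). Ncf1, the p47 subunit of the phagocyte NADPH oxidase, had 1 count against 72, 49.6-fold below control (95% counting interval 8.61 to 1984). Unc93b1, the chaperone of endosomal Toll-like receptors, kept 22.1%, and Abca9, a lipid transporter gene, 21.9%; without PLX5622 library 8 Abca9 was at -1.73 (adjusted p = 0.0513). Rnase4, a secreted ribonuclease whose gene overlaps Ang on the same strand, kept 28.3%, Anxa3, an annexin, 34.5%, and Fli1, an ETS factor of blood and endothelial cells, 44.4%. Anxa3 was not called without PLX5622 library 6 (-1.25, adjusted p = 0.105). Cflar (chromosome 1, 58711508 to 58758884), the caspase-8 inhibitor c-FLIP, was at 23.1, 32.4, 27.5, 21.8 and 28.8 CPM in control and 13.1, 11.9, 16.4 and 12.9 in PLX5622 libraries. The PLX5622 libraries lay at about 50.8% of control, all below it. Cflar had a log2 fold change of -0.98 ± 0.19 (SE) at an adjusted p of 0.00240. Pde3b (chromosome 7, 114415281 to 114539251), a cyclic-nucleotide phosphodiesterase, was at 39.9, 52.8, 43.4, 48.6 and 46.3 CPM in control and 30.5, 34.6, 26.8 and 33.6 in PLX5622 libraries. It was the smallest called change, and its groups did not overlap. On the log2 scale Pde3b changed by -0.56 ± 0.13 (SE, adjusted p = 0.0458), and the call was lost in 14 of 19 fits that each left out 1 library, with adjusted p up to 0.255. DESeq2 did not call Pde3b (adjusted p = 0.201).

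The one higher gene was Tcea2 (chromosome 2, 181680310 to 181688071), which encodes a transcription elongation factor. It was at 14.4, 16.2, 15.2, 18.6 and 12.8 CPM in control and 26.8, 26.7, 21.6 and 27.2 in PLX5622 libraries. All PLX5622 libraries lay above all control libraries, with library 8 the lowest of them. The fitted change of Tcea2 was 0.74 ± 0.18 in log2 (SE, adjusted p = 0.0460), and the call was lost in 13 of 19 fits without 1 library, with adjusted p up to 0.217. DESeq2 did not call Tcea2 (adjusted p = 0.222). Other genes above 0 with a small p outside the myeloid lists, Lmtk3, Vps37d, Mapkapk2 and Rfx4, were not called. Lmtk3, a neuronal kinase, was at 43.1, 41.5, 39.1, 34.6 and 32.9 CPM in control and 57.9, 47.4, 49.3 and 66.5 in PLX5622 libraries. Every PLX5622 library lay above every control library, at 0.56 ± 0.14 (adjusted p = 0.0869). Mapkapk2, a stress kinase downstream of p38, was at 0.76 ± 0.21 (adjusted p = 0.165), Vps37d at 0.67 ± 0.18 (adjusted p = 0.164) and Rfx4, a transcription factor gene, at 0.69 ± 0.19 (adjusted p = 0.165); Rfx4 was called without PLX5622 library 8 (0.81, adjusted p = 0.0492). Genes just short of the threshold on the lower side, named after their values were seen, were Rnf213 at -1.45 ± 0.36 (adjusted p = 0.0602), F11r at -1.43 ± 0.36 (adjusted p = 0.0707) and Adap2 at -1.16 ± 0.29 (adjusted p = 0.0799). Rnf213 was called without control library 3 (-1.61, adjusted p = 0.0113) or PLX5622 library 29 (-1.72, adjusted p = 0.0449). F11r was called without control library 9 (-1.55, adjusted p = 0.0353), PLX5622 library 29 (-1.81, adjusted p = 0.0286) or PLX5622 non-dependent library 23 (-1.43, adjusted p = 0.0496), and Adap2 without control library 3 (-1.26, adjusted p = 0.0376) or PLX5622 non-dependent library 47 (-1.16, adjusted p = 0.0397).

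Promoters of the fallen genes were read for the core sequence bound by PU.1, the ETS factor encoded by Spi1 that governs macrophage and microglial genes. The RefSeq table of GRCm38.p6 held windows, 250 bases before to 50 after the gene's start, for 34 of the 47 genes, and 8 of these (23.5%) held GAGGAAGT or its complement ACTTCCTC on the strand of the gene. Among tested genes with a window the share was 3.21% (287 of 8940), and over all 32851 windows 3.20%. The genes were chosen by their fall, so this is a description of the letters. The matches of the 4 genes with the smallest p are shown with the motif in capitals, 5′ to 3′ on the gene's strand.
Ctss (chr3:95526773-95526802, plus strand): aatgaaagttcACTTCCTCattgtggatgc
C1qc (chr4:136893091-136893120, minus strand): ggacggcagacACTTCCTCattttggcaca
Inpp5d (chr1:87620281-87620310, plus strand): gtttctataatGAGGAAGTtctgtgcagct
Hpgds (chr6:65144761-65144790, minus strand): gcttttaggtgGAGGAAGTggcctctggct
Counted from the start that the RefSeq windows use, the matches in Ctss, Inpp5d, Hpgds and C1qc began 2, 20, 49 and 195 bases before it. For Hpgds and C1qc that start lies inside the gene as GENCODE places it above, so these distances do not follow from the positions given there. The other genes with a match were Cd53, Slco2b1, Apbb1ip and Cyth4. A match is not evidence of binding, and its absence elsewhere says only that these letters are not in the window.

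**Figure D2:**
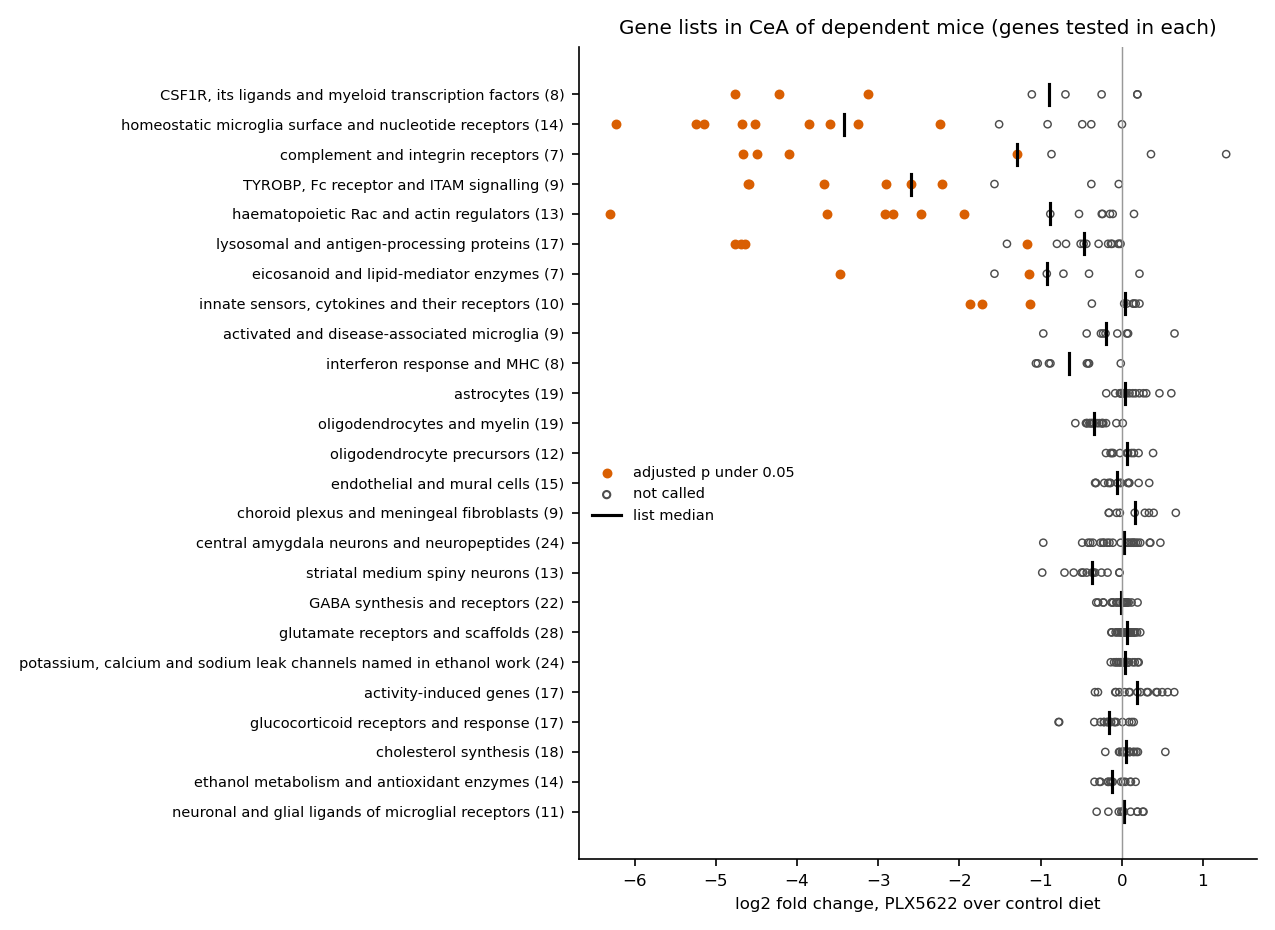
Log2 fold change of every tested gene, PLX5622 over control diet, by gene list (number tested in brackets); filled points passed an adjusted p under 0.05 and bars are list medians. The called genes that belong to a list lie in the 8 myeloid lists at the top, 11 of the 48 called genes are in no list and not shown, and fitted values of genes with 3 or fewer PLX5622 counts depend on the fit and are no bounds.

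Listed genes of other cell types were not called, where 0.41% of all tested genes were, so 0 calls in a short list say little. Among astrocyte genes 0 of 19 were called, with a median of 0.040; Gfap, the intermediate filament of reactive astrocytes, was at 52.6, 94.99, 52.1, 44.8 and 54.99 CPM in control and 75.9, 71.1, 91.7 and 124.5 in PLX5622 libraries. The diets overlapped through control library 2. At 0.61 ± 0.34 Gfap did not pass (adjusted p = 0.947), and neither did the glutamate transporter gene Slc1a3 at 0.22 ± 0.082 (adjusted p = 0.669). Oligodendrocyte and myelin genes were below 0 in 18 of 19 with 0 called and a median of -0.35 (-0.16 without control library 11). Aspa, which breaks down N-acetylaspartate, was at -0.57 ± 0.21 (adjusted p = 0.669) and the myelin gene Ermn at -0.43 ± 0.21 (adjusted p = 0.903). The summed level of that list ran from 2934 to 5033 CPM in control and from 2579 to 3779 in PLX5622 libraries. Oligodendrocyte precursor genes had a median of 0.070 (0 of 12 called), endothelial and mural genes -0.052 (0 of 15) and choroid plexus and meningeal genes 0.16 (0 of 9). That last median was -0.018 without control library 9, -0.074 without control library 11, 0.56 without control library 2 and 0.88 within the libraries that hold spike-in RNA. The list summed to 154 and 83.8 CPM in control libraries 9 and 11 and to between 594 and 2681 in the other 7. Its part in the result was not tested.

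Macrophages of the brain's borders and blood cells share genes with microglia, and their markers were read as well. Of 13 border macrophage genes only Maf was tested, at -0.33 ± 0.17 (adjusted p = 0.896). With no filter the 13 had a median of -2.47 and 2 were called lower, F13a1 and Stab1. That median was the fitted value of Lyve1, with 3 control counts against 0, so it depends on the fit and is no bound. The list summed to 43.2 to 64.0 CPM in control and 27.9 to 36.5 in PLX5622 libraries. Maf, with 285 control and 155 PLX5622 counts, made up most of that sum on both diets, so the sum says little about the other members. Mrc1, the mannose receptor CD206, had 21 counts against 2, Cd163 had 10 against 0 and F13a1 31 against 1, control before PLX5622. The part of these cells in the result was not tested. Of 15 blood cell genes 8 had no count in the 9 libraries and 1 was tested. The list summed to 14.9 to 64.0 CPM in control and 18.8 to 51.5 in PLX5622 libraries.

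Neuronal genes, the readout of interest in ethanol dependence, also gave 0 calls, where 0.41% of all tested genes were called. At that share lists of this size hold few calls or none, so 0 calls do not show that neurons were unchanged. In the central amygdala list 0 of 24 were called and the median was 0.029. Npy, the neuropeptide that counters stress responses, was at 33.5, 29.6, 38.3, 35.8 and 32.9 CPM in control and 23.02, 25.7, 26.8 and 22.2 in PLX5622 libraries. Every PLX5622 library lay below every control library, but at -0.49 ± 0.17 the gene did not pass (adjusted p = 0.634). Sst was at 0.20 ± 0.081 (adjusted p = 0.776), Crhbp, which binds corticotropin-releasing factor, at 0.35 ± 0.16 (adjusted p = 0.841) and the neuronal factor gene Isl1 at -0.97 ± 0.43 (adjusted p = 0.841). Of the GABA list 0 of 22 were called (median -0.0033), of the glutamate list 0 of 28 (0.059) and of the ion channel list 0 of 24 (0.036). Their members with the smallest p were Kctd12, a GABA-B receptor subunit at -0.29 ± 0.12 (adjusted p = 0.765), the kainate receptor gene Grik1 at 0.23 ± 0.10 (adjusted p = 0.841) and the calcium channel gene Cacna1a at 0.16 ± 0.077 (adjusted p = 0.888). The 13 striatal genes tested were all below 0, with a median of -0.37 (-0.063 without control library 11) and Drd2 at -0.98 ± 0.56 (adjusted p = 0.950). Control library 11 held 3487 CPM of that list, against 1600 to 2009 in the other control and 1624 to 2192 in the PLX5622 libraries. Neuronal and glial ligands of microglial receptors had 0 of 11 called and a median of 0.027, with Cd200, the inhibitory ligand on neurons, at 103.7, 114.7, 93.3, 113.3 and 96.1 CPM in control and 105.8, 128.4, 113.4 and 104.4 in PLX5622 libraries. Its groups overlapped.

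Among activity-induced genes, Fos and Arc separated 3 PLX5622 libraries from the fourth. Fos, the immediate early gene of neuronal activation, was at 27.1, 22.5, 27.5, 28.2 and 22.1 CPM in control and 45.4, 44.4, 39.8 and 21.5 in PLX5622 libraries. Arc, a synaptic immediate early gene, was at 31.1, 20.4, 20.97, 22.4 and 19.5 CPM in control and 49.8, 42.5, 31.2 and 17.9 in PLX5622 libraries. Libraries 6, 7 and 8 lay above every control library for Fos, and library 29, the one without spike-in RNA, lay below them all. Over the 9 libraries Fos was at 0.57 ± 0.19 (adjusted p = 0.498), and it was called without library 29 (0.77, adjusted p = 0.0247); Arc was at 0.65 ± 0.31 (adjusted p = 0.896), Nr4a1 at 0.44 ± 0.20 (adjusted p = 0.841) and Btg2 at 0.50 ± 0.25 (adjusted p = 0.903). Among the libraries without spike-in RNA, where library 29 stands alone, the 4 genes turned to -0.22, -0.21, -0.054 and -0.44. Summed over the activity-induced list, the control libraries held 740, 544, 668, 689 and 551 CPM and the PLX5622 libraries 735, 781, 737 and 519. For that sum libraries 6 and 8 lay within the control range. Of the 17 tested members 12 were above 0 and 5 below. The list's median was 0.19 over all 9 libraries, 0.37 without library 29, 0.094 without PLX5622 library 7 and 0.12 without control library 11, with 0 of 17 called over all. It was 0.19 within the libraries that hold spike-in RNA, 0.12 with spike-in presence as a term and -0.22 in the libraries without it.

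Interferon and MHC genes were all below 0, 8 of 8 tested, with 0 called and a median of -0.65. With no filter on low counts all 24 were below 0, the median was -1.05 and 2 were called, the MHC class II genes H2-Aa (40 counts against 3, adjusted p = 0.00280) and H2-Eb1 (30 against 3, adjusted p = 0.0361). Control library 2 alone held 28 of those 40 counts of H2-Aa and 21 of the 30 of H2-Eb1. B2m, the shared MHC class I light chain, was at 42.3, 134.4, 39.1, 37.1 and 44.2 CPM in control and 23.02, 29.6, 32.9 and 30.8 in PLX5622 libraries. H2-K1, a class I heavy chain, was at 24.7, 68.2, 23.9, 16.002 and 19.02 CPM in control and 14.3, 13.8, 12.1 and 16.5 in PLX5622 libraries. Control library 2 stood far above the other control libraries in both. The diets did not overlap for B2m, and for H2-K1 control library 9 reached down into the PLX5622 range. The list summed to 652 CPM in that library, against 184 to 226 in the other controls and 152 to 165 with PLX5622. H2-D1 reached 67.5 and Ifitm3, an interferon-induced membrane protein, 42.2 CPM in library 2. Cd74, the MHC class II chaperone, was not tested; it was at 5.58, 56.3, 5.06, 3.84 and 3.60 CPM in control and 1.87, 0.988, 0.865 and 0.715 in PLX5622 libraries. The log2 fold changes were -1.03 ± 0.36 for B2m (adjusted p = 0.669), -1.06 ± 0.40 for H2-K1 (adjusted p = 0.762), -0.88 ± 0.41 for H2-D1 (adjusted p = 0.896) and -0.90 ± 0.42 for Ifitm3 (adjusted p = 0.896). Without library 2 they were -0.50, -0.53, -0.28 and -0.35, and the list's median was -0.23. Within the libraries that hold spike-in RNA it was -0.18.

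**Figure D3:**
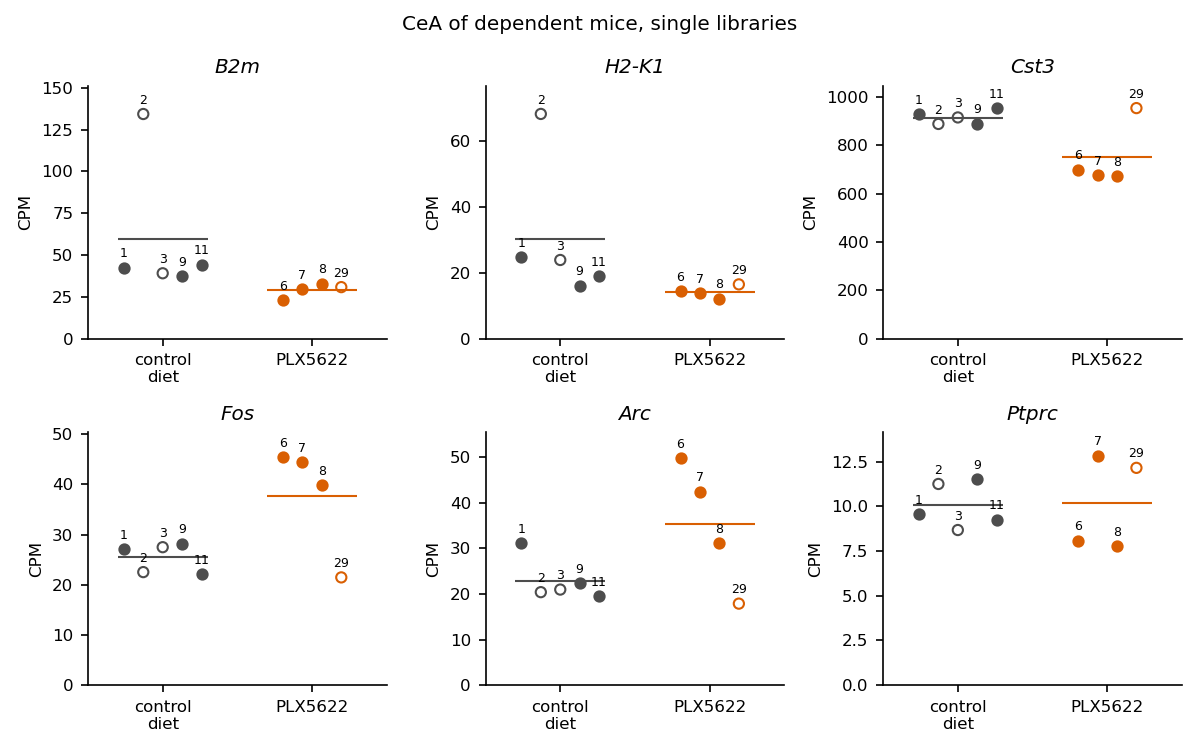
CPM in each library, with its number, for 6 genes in CeA of dependent mice; filled points hold spike-in RNA, open points do not, and lines are group means. Control library 2 stands apart for B2m and H2-K1, and PLX5622 library 29 for Cst3. For Fos and Arc library 29 is the lowest PLX5622 library and lies just below the control libraries, and Ptprc covers the same range on both diets.

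Metabolic and stress lists gave 0 calls as well: 0 of 17 for glucocorticoid response (median -0.16), 0 of 18 for cholesterol synthesis (0.048) and 0 of 14 for ethanol metabolism and antioxidant enzymes (-0.12). The share called over all tested genes was 0.41%. Insig1, the sterol sensor, was at 12.8, 23.9, 23.9, 17.3 and 21.1 CPM in control and 26.1, 30.6, 35.5 and 25.04 in PLX5622 libraries. The diets did not overlap, and at 0.54 ± 0.19 the gene was not called (adjusted p = 0.615). Sult1a1, a sulfotransferase in the glucocorticoid list, was at -0.78 ± 0.29 (adjusted p = 0.669) and Aldh2, which clears acetaldehyde, at -0.33 ± 0.21 (adjusted p = 0.952). An unadjusted edgeR p under 0.05 was found for 644 of the 11721 genes, 281 higher and 363 lower, with the 48 called genes among them. A share of about 0.05 passes without any diet effect, so uncalled genes among the 644 are not shown to respond. The medians above compare with 0.00084 over all genes.

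The same comparison in non-dependent mice, which uses other libraries, gave a set that shared most of its lower genes. There 50 genes were called higher and 57 lower, together 0.913% of those tested. Of the 47 genes lower in dependent CeA 42 were also lower there, 89.4% of the dependent and 73.7% of the non-dependent list, and all 47 were below 0. The 5 that were not called there were Cflar, Rnase4, Anxa3, Tgfbr2 and Pde3b, all of which kept more than 25% in dependent mice. For Cflar the change was -0.33 ± 0.15 there and -0.98 ± 0.19 with dependence, a difference of -0.65 ± 0.25 that edgeR did not call (adjusted p = 0.99). For Rnase4, Anxa3, Tgfbr2, Pde3b and Tcea2 the differences were -0.84 ± 0.47, -0.55 ± 0.46, -0.51 ± 0.34, -0.15 ± 0.19 and 0.56 ± 0.24, with adjusted p of 0.99 each.

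Tested over all genes, 0 differed in their response to diet between dependent and non-dependent CeA with edgeR, and 553 had an unadjusted p under 0.05; DESeq2 gave 0 as well, and without a filter on low counts edgeR called 1, Fam155a. Among the smallest p on either side were those of Ehmt1, Gpc6, Fam155a and Smoc2 (more negative in dependent mice) and of Ggct, Slc41a1 and Alkbh7 (more positive). Fam155a, a subunit of the sodium leak channel NALCN, was at 1048 ± 102.6 CPM (mean ± SD) in control and 1100 ± 97.4 in PLX5622 libraries of dependent mice, and at 906.5 ± 129.5 and 1338 ± 75.6 in those of non-dependent mice. The difference between the diet effects was -0.49 ± 0.12 (adjusted p = 0.695). Gpc6, a glypican, and Ehmt1, a histone methyltransferase, differed by -0.50 ± 0.12 and -0.65 ± 0.15 (adjusted p = 0.569 each), and Ggct, a glutathione-cycle enzyme, by 0.87 ± 0.21 (adjusted p = 0.695). The 50 genes higher in non-dependent and the 1 in dependent CeA are therefore not shown to differ between histories.

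**Figure D4:**
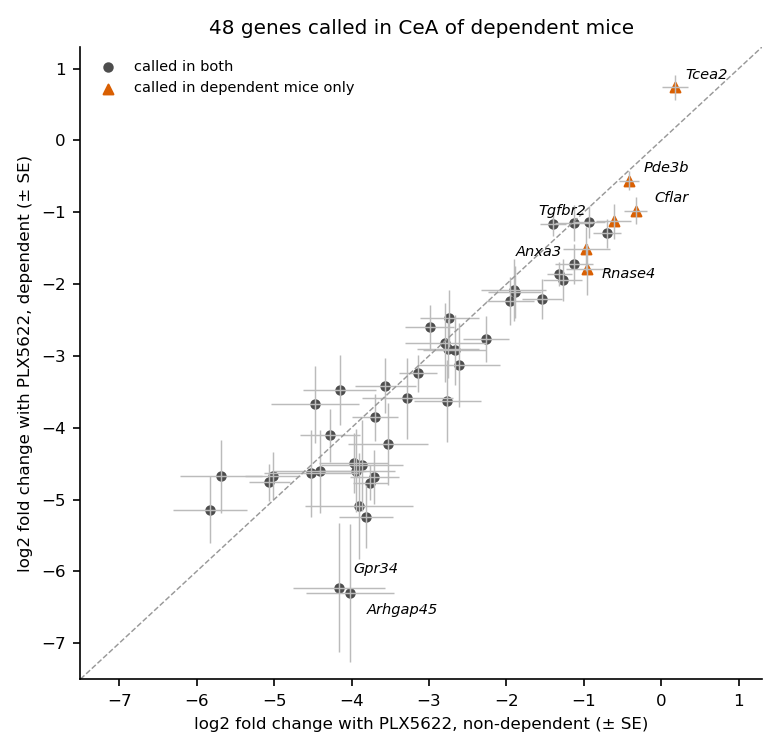
Log2 fold change with PLX5622 (± SE) of the 48 called genes in dependent (vertical) and non-dependent (horizontal) CeA; triangles were called in dependent mice only and the dashed line marks equal effects. For Gpr34 and Arhgap45, with 0 counts in PLX5622 libraries of dependent mice, the fitted values depend on the fit and are no bounds.

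In mPFC of dependent mice, read on another instrument and counted with another annotation release, 0.916% of 12331 genes were called, 6 of them higher and the rest lower. Of the 47 genes lower in CeA 46 were also lower there, 97.9% of the CeA and 43.0% of the mPFC list. The exception was Cflar, at -0.31 ± 0.12 (adjusted p = 0.529 with edgeR). The mPFC list counts genes whether or not they were tested in CeA. It rests on 9 against 9 libraries with 1786107 to 2522222 counts each, where the CeA libraries had 1062443 to 1968971. The 43.0% therefore does not measure how many mPFC genes lack a response in CeA. In a joint fit of 13035 genes, 1 differed between the regions in its response to diet. This was Ptprc (chromosome 1, 138062861 to 138175708), whose level in mPFC was 3.57 ± 0.748 CPM with control chow and 0.437 ± 0.611 with PLX5622 (mean ± SD, n = 9 each), while in CeA it was level (10.1 ± 1.26, n = 5, and 10.2 ± 2.65, n = 4). The difference was 2.92 ± 0.48 (SE, adjusted p = 0.000356), and leaving out each of the 9 CeA libraries gave 2.81 to 3.04. In a fit with a block for the 8 dependent library numbers found in both regions, the difference was 4.35. There Ptprc was not called (adjusted p = 0.0895 with edgeR). Ptprc passed the filter on low counts in the joint fit through CeA, where it was higher, and was too low to be tested in mPFC alone. In non-dependent CeA Ptprc stood at 9.22 ± 2.32 (n = 6) and 8.61 ± 3.18 (n = 4). Region, instrument and annotation release cannot be told apart here.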

How the data were processed

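RNA of whole CeA tissue was sequenced as single-end reads on a NovaSeq, and that of mPFC on a HiSeq, per the labels' protocols. The submitters' processing notes name GRCm38.p6 (mm10), the aligner Bowtie2 2.3.4.3, the counter HTSeq 0.11.0 and, besides, R 3.5.1, FastQC 0.11.8 and DESeq2 1.10.1. The sources used here do not give the strand setting. The deposited values are raw counts per Ensembl gene, with 92 spike-in entries and 5 summary entries that were left out of library sizes and tests. In CeA of dependent mice 71.6% to 73.04% of reads were in genes. The CeA files list 56350 identifiers and the mPFC files 54547, from different annotation releases.

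Genes were kept by edgeR's filter (minimum count 10, minimum total 15), scaled by TMM and tested with the quasi-likelihood test of edgeR 4.0.16 (R 4.3.3), with the 4 CeA groups in 1 fit sharing an estimate of the spread; dependent and non-dependent diet effects were compared by their interaction. CeA and mPFC were compared in a joint fit. P-values were adjusted by Benjamini-Hochberg over all genes tested, and calls used 0.05. DESeq2 1.42.0, other filters and scalings, a spike-in term, the 9 libraries alone, libraries with or without spike-in RNA, and leaving out each library were the alternatives. Fold ratios from few counts carry exact 95% intervals that cover counting error only, and a count of 0 was set to a floor of 3 counts over the group.

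The gene lists and named genes were chosen with earlier results of these data known. Named were all called genes, the 6 smallest p on each side outside the myeloid lists, up to 4 members with the smallest p per list, and, for differences, the 4 smallest p each way; a few of these genes are not reported here. The scripts were tested on simulated data. Replicates were compared in 16 pairs, and their chi-square per gene, 1.25 to 3.4, gave no sign of duplicated libraries.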

Additional observations from a re-analysis of the deposited data

Results flagged for a closer look

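In 29 of 242 groups of values checked, 1 library lay far from the others of its group. Chance gives about 1 in 20 for independent groups. These groups share libraries, and list sums hold genes that were also checked singly, so that rate does not strictly apply. The causes of the far values were not tested.

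Control library 2 was the far library most often, and always on the high side. It held 134.4 CPM of B2m, 68.25 of H2-K1, 67.55 of H2-D1, 42.22 of Ifitm3, 43.62 of P2ry12, 13.37 of Runx1 and 94.99 of Gfap. It also held 651.5 CPM summed over the interferon and MHC list and 64.03 over the blood cell list. Control library 11 was high for Drd2 (54.48), Olfml3 (12.85) and the striatal sum (3487), and low for Grik1 (130.5) and the cholesterol synthesis sum (894.3). Control library 1 was low for Hpgds (7.176) and high for Arc (31.1).

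PLX5622 library 29 was high for Cst3 (953.5), Slc1a3 (535.1) and the blood cell sum (51.5), and low for C1qb (0.7153). Library 6 was low for Ermn (31.11), Sult1a1 (4.978) and Kctd12 (46.67), with a central amygdala sum of 2816 CPM far from the others. Library 8 was low for Tcea2 (21.63) and Tbxas1 (0) and high for Sall1 (6.058). Library 7 was high for Vsir (4.939) and Crhbp (71.11).

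Ptprc was set apart by a tested difference between regions, 2.916 in log2 for CeA minus mPFC. It passed the joint filter through CeA, where it was higher, and was too low to be tested in mPFC alone. In the fit with a block for shared library numbers it was not called (adjusted p = 0.0895 with edgeR). Spike-in RNA, outside the gene counts, made up at least 0.8752% of reads in the PLX5622 libraries that hold it, above the control libraries that hold it.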

How the results depend on the processing

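The higher count, 1, was 0 under DESeq2, a mean CPM of 5 or more, the older edgeR spread setting, the 9 libraries alone, a spike-in term, and within libraries with or without spike-in RNA. The total of 48 was 47 under DESeq2, 41 at a mean CPM of 5, 40 in the 9 libraries alone, 46 with the spike-in term and 41 within the spike-in libraries. With no filter 59 more genes were called, 1.1e+02 in all, of which 1.0e+02 were lower (56 more) and 4 higher, and 1 interaction, and the libraries without spike-in RNA, with 1 PLX5622 library assumed to vary like the others, gave 21 (21 lower). Leaving out each library gave 44 to 56 called, 44 to 54 lower, 0 to 3 higher, 43 to 47 shared lower genes and 0 interactions. Within libraries without spike-in RNA signs turned for Fos (-0.22), Nr4a1 (-0.054), Arc (-0.21), Btg2 (-0.44), Cst3 (0.080), Sult1a1 (0.10) and Aldh2 (0.076). Ptprc, at 0.0035, was -0.00090 with no filter, -0.12 within spike-in libraries and -0.11 to 0.12 without 1 library. Causes were not tested.

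At a mean CPM of 5 the regions gave 0 calls, a filter that removed Ptprc (mean 4.49 CPM) and did not retest it. The labels do not say whether library numbers shared by CeA and mPFC are the same mice. Correlations between the libraries of a number were -0.0565 to 0.0978 over 8 pairs, too low to show pairing and unable to exclude it. With the replicate block there were 0 calls (Ptprc 4.35, adjusted p = 0.0895), with 479 of 12269 genes at an unadjusted p under 0.05. At 1062443 to 1968971 counts 84 myeloid genes did not pass the filter, 6 of them at 0 in all 9 libraries.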
